A study of Rattus norvegicus with 6 samples.

Results

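Transcripts of 10 genes of the MAP kinase pathway were followed in the neuroretina of diabetic rats: 7 dual-specificity phosphatase genes that encode MAP kinase phosphatases (Dusp1, Dusp4, Dusp6, Dusp7, Dusp8, Dusp10 and Dusp16) and the 3 genes of the c-Jun N-terminal kinases, JNK (Mapk8, Mapk9 and Mapk10). They were picked by gene symbol from the 28358 genes of the tables, and all 10 passed the filter on low counts that left 13242 genes. The choice was made with the treatment contrast in view, in which Dusp8 was already known to differ. Their differences between the groups are therefore a description, with no test of their own.

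The samples came from male Goto-Kakizaki (GK) rats aged 14 months, an inbred strain that develops type 2 diabetes without obesity. In 3 samples a microsphere suspension of 5 µL with 6.2 µg of spironolactone, which blocks the mineralocorticoid receptor, had been injected once into the vitreous. In the other 3 samples the injected microspheres carried no drug. All microspheres were of PLGA, a degradable polymer, and all retinas were taken 2 months after the injection. Both groups were thus diabetic and injected, and no retina of a non-diabetic or uninjected rat was compared here. Nothing in the labels ties the samples to individual animals, so the error in each p-value is that between samples and may be technical in part.

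MAP kinases are the last tier of a relay in which a MAP kinase kinase kinase activates a MAP kinase kinase, which in turn phosphorylates the MAP kinase on a threonine and a tyrosine. The ERK branch answers mainly growth factors, and the JNK and p38 branches answer mainly stress. MAP kinase phosphatases remove both phosphates, and many of their genes are themselves induced by MAP kinase activity, which closes a feedback loop. In the retina, JNK signalling is best known from ganglion cells, where it phosphorylates the transcription factor c-Jun after damage to the optic nerve.

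The 6 libraries held 9996198 to 12589466 expected counts each. Across all tested genes 348 were called, that is, passed an adjusted p of 0.05 (edgeR quasi-likelihood test, Benjamini-Hochberg), 247 of them higher and 101 lower with spironolactone. The median log2 fold change of all tested genes was −0.003. Markers of rods, cones, bipolar, amacrine, horizontal and ganglion cells and of Müller glia were detected in every library, apart from Otx2 of the bipolar list, which was listed at 0. Rod markers were lower with spironolactone in 9 of 15 tested, and their summed level was 43085 to 48226 CPM (expected counts scaled to a common library size) in the spironolactone libraries against 52376 to 64804 CPM in the non-loaded libraries, with none of the 15 at 0. In bulk tissue, fewer cells of a type and less RNA per cell cannot be told apart. Of the other marker lists, 1 of 9 Müller genes was lower (Crym) and 1 of 7 endothelial genes (Vwf) and 1 of 2 red blood cell genes (Hba-a2) were higher, while 0 of 10 microglial genes were called. Hba-a2 was at 103, 107 and 63.9 CPM with spironolactone and at 63.6, 65.4 and 54.5 CPM without, and the groups overlapped. Pigment epithelium genes, which a dissected neuroretina should largely lack, had 0 of 6 called and summed to 47.1 to 111 CPM with spironolactone and 96.8 to 123 CPM without. The part of these shifts in the results below was not tested.

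Dusp8 stood apart from the other members. It encodes a phosphatase that acts mainly on JNK and p38 and is best known from brain and heart. Its level, in CPM scaled with TMM factors, was 135, 139.8 and 155 in the spironolactone libraries, against 83.5, 83.8 and 92.1 in the non-loaded libraries. Every spironolactone library lay above every non-loaded library. The means were 143 ± 10.5 CPM with spironolactone and 86.5 ± 4.88 CPM without (SD, n = 3 each), a fold of 1.66 and a log2 fold change of 0.73 ± 0.07 (SE). These values rest on 1449, 1752 and 1718 expected counts in the spironolactone libraries and on 825, 961 and 1120 in the non-loaded libraries. Dusp8 was the only one of the 10 members called, in a table where 2.63% of all tested genes were called, 1.87% higher and 0.763% lower. Of the 247 genes called higher, 35 had a larger fold.

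The difference in Dusp8 did not hang on a single library. Leaving out each library in turn gave log2 fold changes of 0.67 to 0.77, and the gene was called each time. It was also called with other scalings, filters and tests, DESeq2 and limma among them. These refits reuse the libraries in which Dusp8 was already known to differ, so they are no separate evidence. One covariate ended the call. Sample titles end in 8, 10 and 11 for spironolactone and in 2, 3 and 4 for non-loaded microspheres, and the level of Dusp8 followed that number within both groups. With the number in the model the log2 fold change was 0.30 and the gene was not called, as was the case for every gene of the table (0 called, 562 with an unadjusted p below 0.05 in edgeR). What the number stands for is not given in the labels, and it cannot be told apart from the treatment. Because it splits the samples as the treatment does, estimates with it in the model are imprecise, and their SEs are not given here.

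To show what lies in front of the genes compared, the 250 bases before the annotated start are printed for Dusp8, for Dusp16, a phosphatase with the same preference for JNK and p38, and for Dusp1, an immediate early gene. The sequences are those of RefSeq on the GRCr8 assembly, another build than the one used for the counts, and are written from 5′ to 3′ on the strand of the gene. Capitals mark the cyclic AMP response element TGACGTCA and its core TGACG, on either strand.
Dusp8 (chr1:206612442-206612691, minus strand): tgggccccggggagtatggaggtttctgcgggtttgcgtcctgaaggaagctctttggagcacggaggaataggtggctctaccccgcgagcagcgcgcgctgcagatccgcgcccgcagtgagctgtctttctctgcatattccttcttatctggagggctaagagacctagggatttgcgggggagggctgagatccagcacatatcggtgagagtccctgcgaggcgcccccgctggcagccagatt
Dusp16 (chr4:169361509-169361758, minus strand): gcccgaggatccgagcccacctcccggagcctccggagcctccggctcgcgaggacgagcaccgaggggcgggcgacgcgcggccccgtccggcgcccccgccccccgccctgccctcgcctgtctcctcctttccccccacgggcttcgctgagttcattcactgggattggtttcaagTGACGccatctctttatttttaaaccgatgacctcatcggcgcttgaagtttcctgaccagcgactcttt
Dusp1 (chr10:17184603-17184852, plus strand): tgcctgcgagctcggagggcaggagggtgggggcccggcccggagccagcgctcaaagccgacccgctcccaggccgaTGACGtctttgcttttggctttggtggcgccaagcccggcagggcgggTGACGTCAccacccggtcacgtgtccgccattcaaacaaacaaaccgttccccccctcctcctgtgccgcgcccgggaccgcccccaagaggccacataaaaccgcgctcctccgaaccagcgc

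The Dusp8 window held 61.2% G and C and 17 CpG dinucleotides, against medians of 52% and 6 (upper quartiles 60.8% and 16) over 27457 rat promoters. All 8 members with a promoter sequence lay above both medians, at 54.4% to 84.4% G and C and 10 to 43 CpG dinucleotides. None of the 6 motifs searched on both strands was found in the Dusp8 window. The full element TGACGTCA was found in 2 of the 8 members with a promoter sequence (Dusp1, 124 bases before the start, and Mapk10, 78 bases before it) and in 1.7% of all promoters. Its core TGACG, which each full element holds on both strands, was found in 4 of 8 (Dusp1, Dusp16, Mapk8 and Mapk10) and in 19% of all. The GC box GGGCGG was found in 5 of 8 (Dusp1, Dusp7, Dusp10, Dusp16 and Mapk8) and in 32.4% of all. The AP-1 motif TGANTCA (6.36% of all), the composite element of C/EBP and ATF factors TGATGNAA (3.27%) and the CArG box of serum response factor (1.5%) were found in 0 of 8. Dusp4 and Mapk9 were not matched.

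The remaining phosphatases of the JNK and p38 branches were not higher with spironolactone. Dusp10, which dephosphorylates JNK and p38, was at 13.5, 13.8 and 12 CPM with spironolactone and at 14.6, 14.9 and 15.5 CPM without. The groups did not overlap, the spironolactone libraries were the lower ones, and the log2 fold change was −0.19 ± 0.12. Dusp16 was at 14.4, 16.9 and 16.7 CPM with spironolactone and at 17, 17.3 and 16.3 CPM without, and its groups overlapped (log2 fold change −0.07 ± 0.12). Both point estimates were thus below 0, where that of Dusp8 was above. Dusp8 and Dusp10 were the 2 of 10 members whose CPM did not overlap between the groups, and 20.9% of all tested genes were of that kind.

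Dusp1, an immediate early phosphatase of the nucleus that acts on p38, JNK and ERK, was at 27.8, 25.5 and 24.7 CPM with spironolactone and at 32.1, 27.2 and 27.4 CPM without. Dusp4, its relative in the nucleus, was at 46.8, 40.1 and 44.2 CPM with spironolactone and at 57, 50.9 and 42.8 CPM without. In both genes the highest library was non-loaded replicate 1, and the groups overlapped. The log2 fold changes were −0.15 ± 0.10 for Dusp1 and −0.20 ± 0.10 for Dusp4, and without non-loaded replicate 1 they were −0.07 and −0.10. With the title number in the model both estimates turned positive (0.35 and 0.41), and neither gene was called in any of the 18 alternatives.

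Dusp6 and Dusp7 encode cytoplasmic phosphatases that act on ERK. Dusp6, which ERK activity itself induces, was the member with the fewest counts, 57 to 91 per library. It was at 5.88, 6.38 and 5.15 CPM with spironolactone and at 7.69, 6.19 and 7.48 CPM without, with 1 spironolactone library above the lowest non-loaded library (log2 fold change −0.29 ± 0.18). Its SE was the largest among the members, and the gene was not called. Dusp7 was at 88.8, 92.2 and 105.7 CPM with spironolactone and at 105.6, 88.4 and 91.9 CPM without. The ranges of the groups were almost the same (log2 fold change 0.01 ± 0.08), and the sign of this small value changed with the library left out. Over the 6 phosphatases other than Dusp8 the log2 fold changes lay between −0.29 and 0.01 with a median of −0.17, and 5 of the 6 were below 0.

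**Figure D1:**
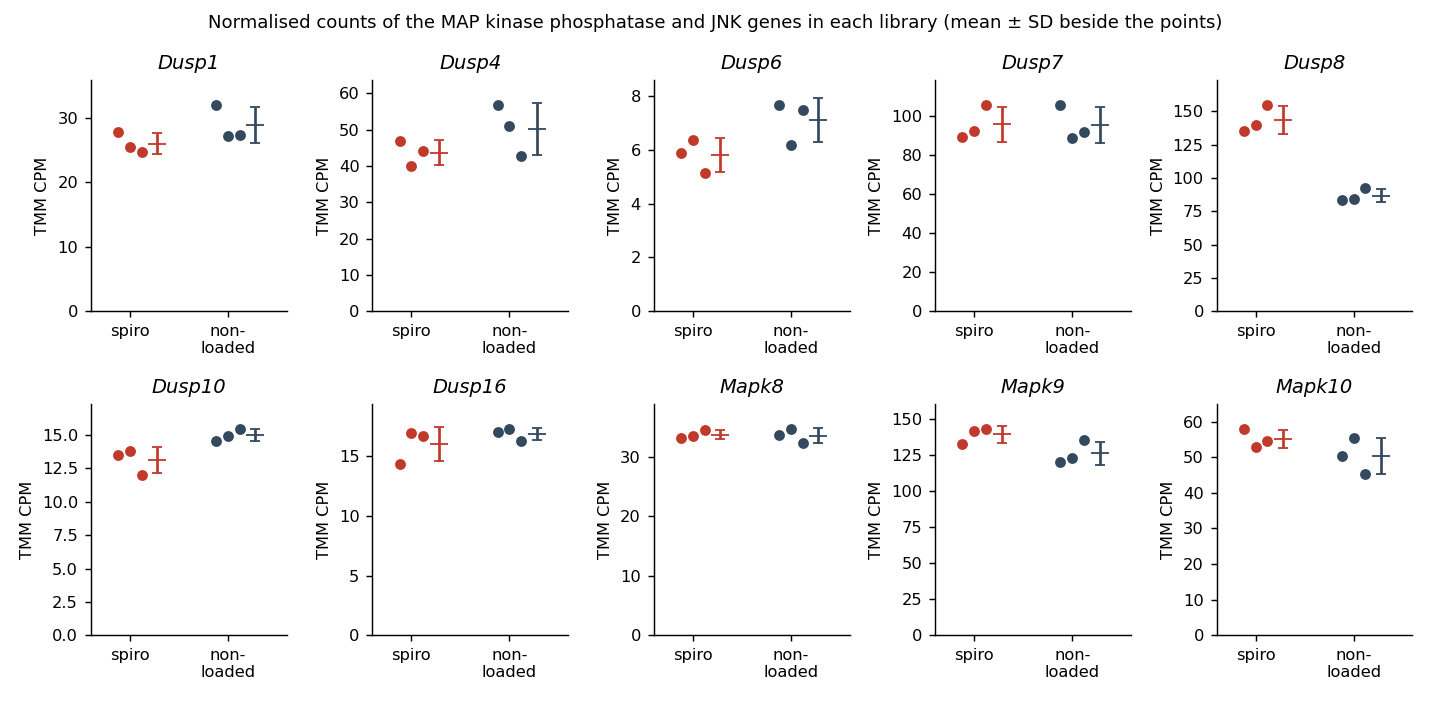
Normalised counts (TMM-scaled CPM, linear axes from 0) of the 7 MAP kinase phosphatase and 3 JNK genes, with 1 point per library and the mean ± SD of 3 libraries beside the points; spironolactone is in red at the left of each panel and non-loaded in blue at the right. The groups stand well apart in Dusp8 (135 to 155 CPM against 83.5 to 92.1 CPM) and narrowly in Dusp10, and overlap in the other 8.

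The JNK genes had small fold changes. Mapk9, which encodes JNK2, a broadly expressed form, was at 132.7, 142 and 143 CPM with spironolactone and at 120.5, 123 and 135 CPM without. The highest non-loaded library lay above the lowest spironolactone library (log2 fold change 0.14 ± 0.06, and −0.21 with the title number in the model). Mapk10, which encodes the JNK3 of neurons, was at 57.9, 53 and 54.6 CPM with spironolactone and at 50.4, 55.4 and 45.3 CPM without (0.13 ± 0.08). Mapk8, which encodes JNK1, was at 33.1, 33.5 and 34.6 CPM with spironolactone and at 33.7, 34.7 and 32.3 CPM without (0.01 ± 0.08). None of the 3 was called, and in CPM the groups overlapped in each. In TPM, which is scaled per length and transcript total, the groups of Mapk8 (62.7 to 65.9 against 61.9 to 62.3) and Mapk10 (43.9 to 46.9 against 36.3 to 43.4) did not overlap, so for these genes the separation depended on the unit. The share of all tested genes without overlap was 20.9% in CPM and was not counted in TPM, so no reading is given to these separations. Dusp8 and Dusp10 were apart in TPM as well. The median log2 fold change of all tested genes was 0.015 on log2(TPM + 1), against −0.003 in the main test.

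The tables give 2 annotated transcripts for Mapk8, 3 for Mapk9 and 5 for Mapk10, and 1 for each phosphatase member. For a gene with several transcripts the length in these tables is an average weighted by the estimated share of each, so it moves when that share moves. For Mapk8 it was 1134, 1116 and 1114 bases with spironolactone and 1139.9, 1144 and 1127 bases without. For Mapk10 it was 2477, 2325 and 2396 bases with spironolactone and 2529, 2404 and 2467 bases without, and for Mapk9 it was 2917, 2969 and 2921 against 2959, 2865 and 2867 bases. The ranges of the groups overlapped in all 3 JNK genes. The files give no counts per transcript, so which transcript made up the average was not analysed here.

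Compared per length, Dusp8 was the most abundant member in the spironolactone group, at 145.6 ± 9.59 TPM, above Mapk9 at 91.8 ± 2.19 TPM in every library. In the non-loaded group it was at 86.8 ± 6.90 TPM and Mapk9 at 83.4 ± 7.99 TPM, and their libraries overlapped. Below them the order was the same in both groups: Mapk8, Dusp7, Mapk10, Dusp1, Dusp4, Dusp16, Dusp10 and Dusp6. Mapk8 and Dusp7 were not separated from each other in either group, and Dusp1 and Dusp4 were separated in the spironolactone group but not in the non-loaded group. Dusp6 closed the order at 4.09 ± 0.43 TPM with spironolactone and 4.96 ± 0.67 TPM without.

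Dusp8 made up 51.1%, 52.1% and 53.3% of the summed TPM of the 7 phosphatase genes in the spironolactone libraries and 35.3%, 38.5% and 40.9% in the non-loaded libraries. The 7 genes summed to 279 ± 13.3 TPM with spironolactone and 227 ± 13 TPM without. Without Dusp8 the sum was 133.4 ± 4.54 TPM with spironolactone and 140.5 ± 11.9 TPM without, with overlapping libraries. The 3 JNK genes summed to 201 ± 3.52 TPM with spironolactone and 185 ± 6.06 TPM without, and Mapk9 held 45.7% ± 0.66 of that sum with spironolactone and 45.1% ± 3.01 without. The ratio of Dusp8 TPM to summed JNK TPM was 0.70, 0.71 and 0.77 with spironolactone and 0.47, 0.44 and 0.50 without.

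**Figure D2:**
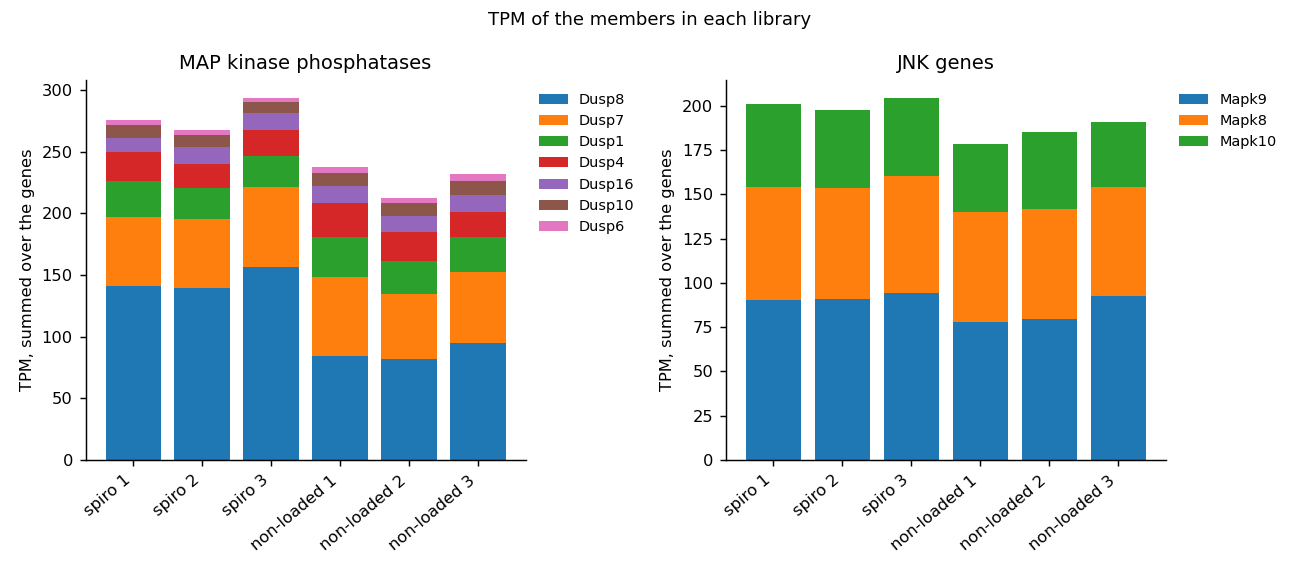
TPM per library (bars from 0, stacked by gene) of the 7 MAP kinase phosphatase genes at the left and the 3 JNK genes at the right, spironolactone libraries before non-loaded libraries. The lowest segment at the left, Dusp8, is 139.3 to 156.7 TPM in the spironolactone bars and 81.8 to 94.7 TPM in the non-loaded bars, while the segments above it sum to 128 to 137 TPM and 130.8 to 153.7 TPM.

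Spread within a group also differed between members. Among the phosphatases the coefficient of variation of the CPM of the 3 non-loaded libraries was smallest in Dusp10 (3%) and Dusp16 (3.03%) and largest in Dusp4 (14.2%). That order did not hold with spironolactone, where Dusp10 varied by 7.36%, Dusp16 by 8.84% and Dusp4 by 7.83%. The lowest there was Dusp1 (6.16%) and the highest Dusp6 (10.7%). A spread from 3 libraries is imprecise, and the part of counting noise in it was not tested. Mapk8 varied by 2.25% in the spironolactone group and by 3.58% in the non-loaded group, the steadiest of the JNK genes, and Mapk10 by 4.58% and 10%. Dusp8 varied by 7.29% with spironolactone and 5.65% without, which is in the middle of the members.

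The genes whose level followed Dusp8 most closely were looked up among 10968 named genes with a mean log2 CPM of at least 2, by the root mean square distance of the log2 CPM over the 6 libraries after each gene's mean was removed. The nearest were Nars (distance 0.05), Gars (0.05), Slc7a5 (0.07), Eprs (0.07) and Setmar (0.08). Nars, Gars and Eprs encode aminoacyl-tRNA synthetases, which load amino acids onto tRNAs, and Slc7a5 encodes a transporter of large neutral amino acids. Nars was at 303, 320.1 and 338 CPM with spironolactone and at 186, 201 and 215 CPM without, a log2 fold change of 0.67 ± 0.07, and Gars had 0.78 ± 0.07. Of the 5, Setmar was near the threshold (edgeR adjusted p = 0.0487), and over the 17 alternatives that gave an adjusted p for it these lay between 0.0214 and 0.9999, with the call lost in 11. As the distance is dominated by the difference between the groups, it finds genes with a fold like that of Dusp8.

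The other members were far from Dusp8 by this measure. The nearest was Mapk9 at 0.30, and 1270 genes outside the set were nearer. The JNK gene with the largest fold, Mapk9, had Suv39h1l1, Vps72, Desi2, Rexo1 and Rwdd1 as its nearest genes, at distances of 0.01 to 0.02. None of these 5 was called. They had log2 fold changes of 0.12 to 0.17, close to that of Mapk9, and like Mapk9 all 5 turned negative with the title number in the model (−0.26 to −0.10). As they were picked for nearly the same profile over the libraries, both likenesses follow from that choice.

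**Figure D3:**
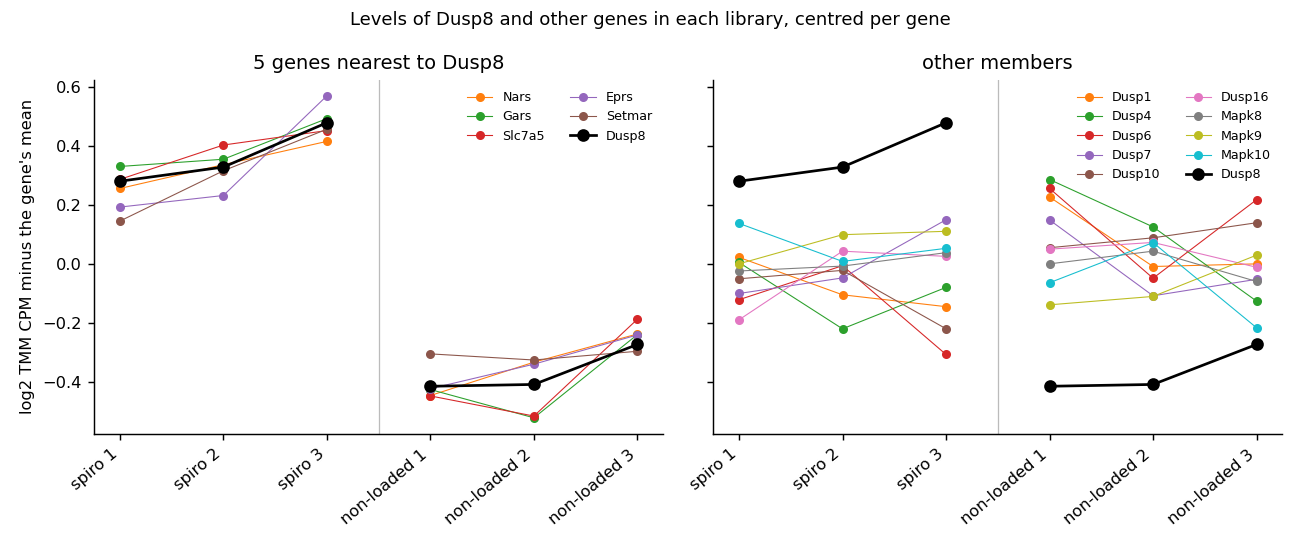
Level of each gene per library, as log2 CPM minus the gene's mean over 6 libraries, with Dusp8 in black; thin lines join the libraries of a group only to show which points belong to a gene. At the left are the 5 genes nearest to Dusp8 (distances of 0.05 to 0.08), which lie above 0 with spironolactone and below 0 without, and at the right the other 9 members, whose groups overlap around 0, except in Dusp10.

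The rest of the pathway was read from 10 lists of genes with 127 members in the tables, of which 114 were tested. Of these, 4 were called, all higher with spironolactone, which is 4 of 114 against the 2.63% of all tested genes given above, and their median log2 fold change was −0.01. None of the other dual-specificity phosphatase genes passed the test. Of the typical ones Dusp5, which acts on ERK, was tested and not called (21.1 ± 3.78 CPM with spironolactone and 22.4 ± 1.47 CPM without), and Dusp2 and Dusp9 were below the filter. Of 12 atypical ones 0 were called and the median was −0.09. The smallest p among them was that of Dusp14, at 8.12, 7.74 and 6.41 CPM with spironolactone and 14.7, 11.6 and 8.47 CPM without (log2 fold change −0.63 ± 0.19, edgeR adjusted p = 0.0988). It passed without non-loaded replicate 3 (0.0252) and with no filter (0.0223), in a range of 0.0223 to 0.9999 over the alternatives. With the title number in the model its estimate turned to 0.71. Counting members and lists together, 18 tested genes had a Dusp symbol and 1 was called. Phosphatases of other families that act on MAP kinases, such as Ppm1a (0.09 ± 0.06), had 0 of 9 called and a median of −0.04.

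In the tiers above the MAP kinases, 1 gene was called. Of 6 MAP kinase kinases tested 0 were called (median −0.01), among them the activators of JNK Map2k4 (−0.01 ± 0.12) and Map2k7 (−0.13 ± 0.08), which were named after their values were seen. The smallest p was that of the ERK activator gene Map2k1 (−0.15 ± 0.07, edgeR adjusted p = 0.291, and 0.20 with the title number in the model). Of 20 kinases of the tier above 1 was called (median −0.02). This was Taok3, a kinase that regulates stress-activated MAP kinases, at 156, 179 and 178 CPM with spironolactone and 139, 134.5 and 138 CPM without. Its log2 fold change was 0.32 ± 0.06 (edgeR adjusted p = 0.0104) and was 0.02 with the title number in the model. The call was lost without spironolactone replicate 2 (0.107), spironolactone replicate 3 (0.0505) or non-loaded replicate 2 (0.0617) and on log2(TPM + 1) (0.0582) and log2(TPM + 0.1) (0.0602), and over all alternatives the adjusted p lay between 0.000502 and 0.9999.

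The ERK and p38 kinase genes had 0 of 10 called (median −0.02), with the smallest p in Mapk12, a p38 form (−0.33 ± 0.14, edgeR adjusted p = 0.266). The scaffold genes, which hold the tiers together and include the JNK-interacting proteins, had 0 of 13 called (median 0.00), with the smallest p in Arrb2 (0.21 ± 0.11, edgeR adjusted p = 0.398). Mapk7, Map2k3, Map3k7 and Dusp11 were listed at 0 in all 6 libraries. So was Otx2, a transcription factor gene of the retina, so that a 0 in these tables is not read as absence.

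Downstream of JNK, 2 of 15 genes were called, and the median of the list was 0.08. Jun, which encodes the c-Jun that gave the kinase its name, was at 532, 505 and 591 CPM with spironolactone and at 119, 171 and 317 CPM without. The groups were apart, and non-loaded replicate 3 was the nearest to the spironolactone libraries. The log2 fold change was 1.42 ± 0.21 (edgeR adjusted p = 0.000945) and was 0.007 with the title number in the model. With robust shrinkage of the dispersions the gene did not pass (adjusted p = 0.221), and over the 18 alternatives the adjusted p ranged from 6.44e-17 to 0.9999, the last with the title number in the model. Jund, a relative of Jun, was at 179, 181 and 161 CPM with spironolactone and 126, 125 and 156 CPM without. Its log2 fold change was 0.36 ± 0.08 (edgeR adjusted p = 0.0213) and was 0.25 with the title number in the model. That call ended when spironolactone replicate 2 was left out (0.155), as it did for replicate 1 (0.132) or 2 (0.121) of the non-loaded group, and on log2(TPM + 1) (0.131) and log2(TPM + 0.1) (0.134), in a range of 0.000179 to 0.9999. The transcript level of a kinase substrate does not measure its phosphorylation, which was not analysed here.

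Of the kinases that MAP kinases activate, 1 of 11 was called (median 0.03). This was Rps6ka5, a nuclear kinase downstream of ERK and p38, at 80.4, 85.9 and 88.1 CPM with spironolactone and 68.4, 65.9 and 66.9 CPM without (log2 fold change 0.34 ± 0.06, edgeR adjusted p = 0.00696). It was lost without spironolactone replicate 2 (0.0645), in a range of 0.000799 to 0.9999. With the title number in the model its estimate was 0.16. The genes that ERK signalling induces, with its feedback inhibitors of the Spry and Spred families, had 0 of 17 called. Their median was −0.17, and 14 of 17 estimates were below 0, against 50.7% of all tested genes. In the list downstream of JNK 4 of 15 were below 0, and over all pathway lists 62 of 114. The lists were written with earlier results known, and these leanings were not tested. In the ERK-induced list the smallest p was that of the transcription factor gene Etv5, at 27.1, 28.2 and 23.3 CPM with spironolactone and 34.3, 32.4 and 31.3 CPM without (−0.32 ± 0.10, edgeR adjusted p = 0.0988). Dusp4 and Dusp6, also genes of the ERK response, had estimates of the same sign. With the title number in the model the estimates of Etv5 (0.07) and Dusp4 turned positive. Over the lists with 0 called, 9 of 68 genes had an unadjusted p below 0.05 in edgeR, and DESeq2 called 0. These lists were set apart by having no call, which by itself lowers that count. Over all pathway lists it was 25 of 114, against 15.8% of all tested genes.

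**Figure D4:**
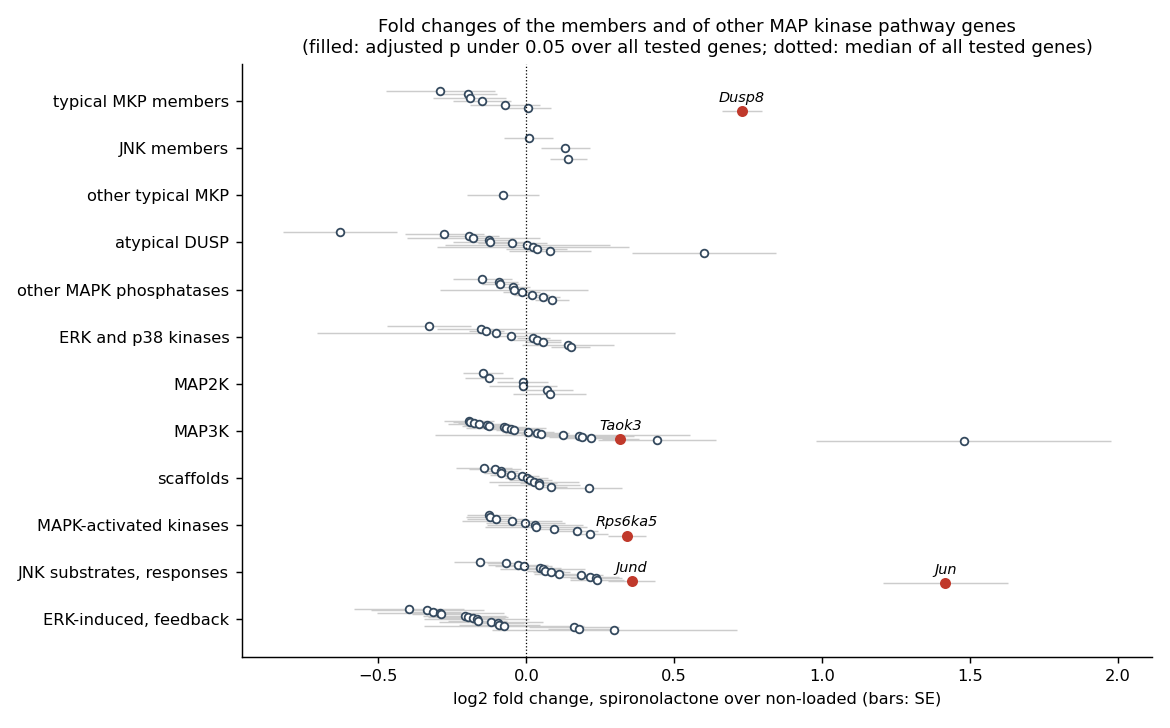
Log2 fold change, spironolactone over non-loaded, of each tested member and pathway gene (1 point per gene, bars SE), by list, with genes called over the whole table filled in red and the median of all tested genes dotted. Dusp8 (0.73) lies apart from the other phosphatases (−0.29 to 0.01), and Taok3, Rps6ka5, Jund and Jun are the other genes called; the unfilled point at the far right is Mos, named after its value was seen, at 0.25 to 1.08 CPM per library.

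The drug target itself, the mineralocorticoid receptor gene Nr3c2, was at 27.2, 31.8 and 35.3 CPM with spironolactone and at 32.5, 30.5 and 30 CPM without. The groups overlapped, and the log2 fold change was 0.02 ± 0.10 (edgeR adjusted p = 0.947). The sign of this small value changed with the library left out, and with the title number in the model it was −0.44.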

How the data were processed

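Gene tables of 6 rat neuroretina libraries (3 spironolactone, 3 non-loaded) were used, grouped by the treatment label. FastQC, Trimmomatic, STAR 2.5.3a, RSEM 1.2.28 and rn6 are named, without roles or parameters, per the submitters' processing notes. A stranded mRNA kit was used, per the labels' protocols, while no strand setting or annotation version is stated. The authors deposited unnormalised expected counts, TPM, FPKM (not used here) and gene lengths in other columns, per the file headers. RSEM shares reads among genes by likelihood, so close paralogs are less certain.

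Expected counts were rounded and filtered (edgeR filterByExpr, 13242 of 28358 genes kept). Spironolactone was set against non-loaded with the two-sided quasi-likelihood test of edgeR 4.0.16 (R 4.3.3; TMM factors). Adjusted p-values follow Benjamini-Hochberg across the whole table, and genes under 0.05 were called. SEs were taken as the absolute log2 fold change divided by the root of the F statistic. Alternatives used DESeq2 1.42.0, limma 3.58.1 (voom, and log2(TPM + 1) and log2(TPM + 0.1) with trend), other scalings and filters, robust shrinkage, effective lengths, the title number as a covariate, and each library left out.

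The members, the gene lists and the rule for named genes were chosen with earlier results of these data known. The rule takes all members, up to 4 called genes of each pathway list or otherwise the one with the smallest p, Nr3c2, and the 5 genes nearest to Dusp8 and to Mapk9. Genes named outside it are said to be so, apart from genes that are at 0, below the filter or cell markers.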

Additional observations from a re-analysis of the deposited data

How the results depend on the processing

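The count of members called was 1 in the main test and in 17 of 18 alternatives, and 0 with the title number as a covariate. The count of all genes called was 348 and became 602 with no filter, 100 on log2(TPM + 1), 95 on log2(TPM + 0.1) and 0 with the title number, and lay between 111 (without spironolactone replicate 2) and 621 (without spironolactone replicate 1) when a library was left out. The share higher was 82% on log2(TPM + 1) and 83.2% on log2(TPM + 0.1). The count of pathway genes called was 4 and became 7 with no filter, 2 on log2(TPM + 0.1) and 0 with the title number, and lay between 1 and 6 with a library left out. With the title number, 15 of 32 named genes changed sign, 5 of them members (Dusp1, Dusp4, Dusp7, Mapk8 and Mapk9), and Eprs, the only one of the 15 that had been called, turned to a log2 fold change of −0.037. The cause of these changes was not tested. No paired analysis was possible because the labels give the groups no shared replicate numbers. Among the members Dusp6 had the fewest counts, 57 to 91 per library, and the part of depth in its SE was not tested.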
